A study of Mus musculus musculus x M. m. domesticus and Mus musculus musculus x Mus musculus castaneus and Mus musculus domesticus with 42 samples.

Results

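Immediate early genes are transcribed within minutes of a stimulus, without new protein synthesis, when kinases activate transcription factors that are already bound at or near their promoters. In neurons the stimulus is commonly synaptic activity and calcium entry, and in liver and other tissues growth factors, stress and hormones act in the same way. Their transcripts are short-lived, so that their levels at the time of tissue removal follow the recent state of the animal as well as its genotype. 10 such genes were examined: Fos, Fosb, Junb, Egr1, Egr2, Npas4 and Nr4a1, which encode transcription factors, Arc, which encodes a synaptic protein, Dusp1, which encodes a phosphatase of MAP kinases, and Ier2, which encodes a small nuclear protein. Every probe set whose platform gene symbol is or includes one of these 10 names was taken, which gave 11 probe sets of 45037 on the array, for 10 genes of 18193 named by a single symbol. Egr2 has 2 of them, and each other gene has 1. None of the 11 carries a second gene symbol.

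The arrays held brain, liver and testis RNA of 14 male mice, 1 array for each tissue and male, 42 in all. The males belonged to 7 genotypes with 2 males each, from wild-derived inbred lines of 3 house mouse subspecies and their crosses. F1 hybrids, written with the mother first, were musculus x domesticus (53 days old), domesticus x musculus (50 days), musculus x castaneus (53 days) and castaneus x musculus (54 days), and the parents were domesticus (45 days), castaneus (47 days) and musculus (47 days). The labels name no treatment, and each genotype was sampled at 1 age, so age and genotype cannot be told apart wherever the ages of the groups differ. Whether the 2 males of a genotype were litter mates, and how and when each was killed, is not given in the sources used here.

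Values are MAS5 signals on a linear scale, where a larger number is a brighter probe set. Differences are on a log2(signal + 31) scale, which understates the change of dim transcripts. A probe set was tested in a tissue if its mean was at or above the 40th percentile there, which kept all 11 member probe sets in brain and 7 each in liver and testis. Arc, Npas4 and both Egr2 probe sets were too dim in liver, and Junb, Npas4 and both Egr2 probe sets in testis. A call is a limma adjusted p under 0.05, adjusted over all 27022 probe sets tested. Levels are compared between tissues or animals for 1 probe set and never between probe sets. The tissue labels fitted their markers: the synaptic gene Snap25 read 13223 to 19944 in brain and at most 115 in testis and 35 in liver, the protamine Prm2 read 14129 to 24856 in testis and at most 121 in brain and 202 in liver, and albumin (Alb) read 17416 to 30075 in liver and at most 1084 in testis and 415 in brain. In bulk tissue, fewer cells that express a gene and less RNA in each cell cannot be told apart.

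Brain had the highest mean signal for 7 of the 10 genes. The exceptions were Arc, which was as bright in testis, Ier2, which was brightest in liver, and Dusp1, whose brain range lay within its liver range. Fos, the partner of Jun proteins in the AP-1 factor, had a lowest, median and highest signal of 447, 3343 and 5487 in the 14 brains, and of 138, 370.5 and 1135 in the 14 livers. In testis the same 3 values were 97, 149.5 and 249. Brains and livers overlapped for Fos through 1 brain, that of domesticus male 1, and all testes lay below all brains. The brain minus liver difference was 2.91 ± 0.272 (SE; adjusted p 7.75e-11, limma), and the testis minus brain difference was -3.99 ± 0.272 (adjusted p 5.03e-14).

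Egr1, a zinc finger factor induced by growth factors and synaptic activity, separated the tissues further. It had a lowest, median and highest signal of 3125, 7435 and 9359 in brain, 285, 873 and 2961 in liver, and 204, 292.5 and 770 in testis. Every brain lay above every liver and every testis. The brain minus liver difference of Egr1 was 2.86 ± 0.189 (SE; adjusted p 2.94e-14, limma), and its testis minus brain difference was -4.24 ± 0.189 (adjusted p 1.55e-18).

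Arc departed from this order. Arc binds the endocytic machinery at synapses and is known above all from excitatory neurons, yet its probe set read 730 to 2534 in testis with a median of 1490.5, and 207 to 2604 in brain with a median of 1032.5. In liver it read 6 to 44, at or near the offset of 31. Testis and brain overlapped over most of their range, and the testis minus brain difference of 0.43 ± 0.217 (SE) was not called (adjusted p 0.0663, limma; 95% interval -0.01 to 0.88). That result turned on single males: with any 1 of 4 males left out (domesticus male 2, musculus x domesticus F1 male 1, domesticus x musculus F1 male 1 or musculus x castaneus F1 male 2) Arc was called. All testes and all brains lay above all livers. Since the liver signals exceeded the offset on 6 of 14 arrays and were too dim to test there, no size is given for the differences from liver. With a single Arc probe set on the array, no second reading of its testis signal was available in these files.

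Ier2 was brightest in liver, with a lowest, median and highest signal of 961, 1655.5 and 2309 there, 189, 606.5 and 741 in brain, and 130, 216.5 and 532 in testis. No brain reached the lowest liver, and its brain minus liver difference was -1.35 ± 0.150 (SE; adjusted p 2.74e-09, limma). Dusp1, which ends MAP kinase signalling by dephosphorylation, read 717 to 3073 in brain and 431 to 4263 in liver, and its brain minus liver difference of -0.07 ± 0.170 was not called (adjusted p 0.727; 95% interval -0.41 to 0.28). In testis Dusp1 lay at 246 to 374, below every brain and every liver.

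Nr4a1, an orphan nuclear receptor, kept a sizeable signal in testis, where it is known as a regulator of steroidogenic genes in Leydig cells. It read 912 to 2055 in testis, 640 to 4256 in brain and 214 to 1906 in liver. Its testis minus liver difference was 1.36 ± 0.227 (SE; adjusted p 3.38e-06, limma), while its testis minus brain difference was -0.79 ± 0.227 (adjusted p 0.0022). Nr4a1 was called higher in testis than in liver. The only other member with such a call was Arc, which was too dim to test in liver and entered through the other tissues.

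Npas4, a factor whose induction is known to be largely restricted to neurons, read 70 to 927 in brain, 5 to 56 in testis and 2 to 13 in liver. Junb, a Jun protein that pairs with Fos, read 201 to 886 in brain, 163 to 687 in liver and 41 to 146 in testis. Fosb, a Fos relative, read 120 to 355 in brain, 90 to 162 in liver and 72 to 130 in testis. Egr2, a zinc finger factor also required for myelination by Schwann cells, read 83 to 889 in brain on its brighter probe set, 12 to 137 in liver and 2 to 100 in testis. Its dimmer probe set read 16 to 449 in brain, 1 to 13 in liver and 1 to 20 in testis.

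Over all 42 arrays 9 member probe sets were tested, and 8 were called between brain and liver, 7 higher and 1 lower in brain, where 82.2% of all probe sets were called, 45.4% higher and 36.8% lower. Between testis and brain 8 were called, all lower in testis, against 84.9% of all probe sets and 50.4% lower. Between testis and liver 8 were called, 2 higher and 6 lower, against 85% of all, with 39.2% higher and 45.8% lower. These counts hold probe sets too dim to test in one of the tissues compared (Arc and Egr2 in liver, Junb and Egr2 in testis), which entered through the tissue where they were bright, and they support nothing about the members.

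**Figure D1:**
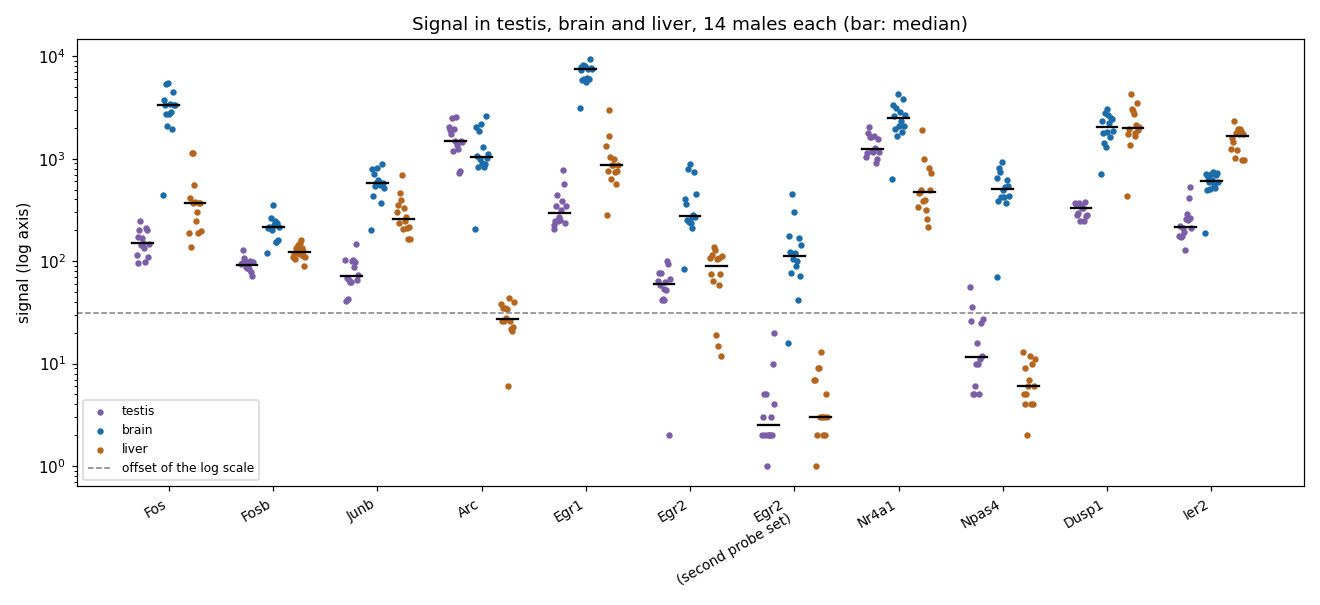
MAS5 signal of each member probe set (log axis) on the 14 arrays of each tissue, 1 point per array, with a bar at the median and a dashed line at the offset of 31. Fos and Egr1 lie highest in brain, Ier2 lies highest in liver, and Arc covers much the same range in testis (730 to 2534) and brain (207 to 2604) and reaches no more than 44 in liver.

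Within brain, the members varied more between the 2 males of a genotype than most transcripts did. The size of the difference between the males had a median of 0.613 over the 11 probe sets and 7 genotypes, against 0.222 over all probe sets tested in brain. It exceeded 1, a doubling on this scale, in 24 of 77 cases, or 31.2%, against 2.99% of all. In liver the median size was 0.483 for the members and 0.286 for all, with 18.4% of cases over 1 for the members against 6.31% of all. In testis the median size was 0.192 for the members and 0.216 for all. There 0 of 49 cases exceeded 1, where 2.49% of all did, so that count says little about the members.

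Ranked by the root mean square of these differences, Arc varied more between brains of like genotype than 99.7% of the probe sets tested, Fos more than 99.6%, both Egr2 probe sets more than 99.5%, Npas4 more than 99.4% and Nr4a1 more than 99%. Junb, Dusp1, Ier2 and Egr1 followed at 97.2%, 97%, 94.5% and 91.4%, and Fosb ranked lowest of the 10 genes, above 82.2%. In liver Fos stood above 99.1%, Nr4a1 above 98.4%, Egr1 above 97.8% and Dusp1 above 91.1%, while Ier2 stood above 83.8%, Junb above 69.6% and Fosb above 8.13%.

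The brain of domesticus male 1 gave the lowest of the 14 signals for all 11 member probe sets, whereas it was the lowest for 10.4% of all probe sets tested. Fos read 447 in domesticus male 1 and 3761 in domesticus male 2, and between 1968 and 5487 in the other 12 brains. Arc read 207 in male 1 and 2042 in male 2, and Npas4 70 and 647. Domesticus male 2 thus lay within the range of the other genotypes, and male 1 below it.

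Egr1 showed the same order at a smaller size, with 3125 in domesticus male 1 and 7934 in male 2. Nr4a1 read 640 and 3349 in them, and Dusp1 717 and 2352. The median male 1 minus male 2 difference over the 11 probe sets was -1.94 in domesticus, and 10 of the 11 exceeded 1 in size, while 47.8% of all probe sets were higher in male 1 and 2.89% differed by more than 1.

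In the musculus x castaneus F1 all 11 probe sets were likewise lower in male 1, by a median of 1.03, and 6 exceeded 1. Of all probe sets tested, 51.2% were lower in that male and 4.02% differed by more than 1. Fos read 1968 in its male 1 and 4463 in its male 2, and Arc 892 and 2604. In the domesticus x musculus F1 all 11 were higher in male 1, with a median difference of 0.87, and Fos read 5487 and 2753. In the musculus x domesticus F1 10 of 11 were higher in male 1, with Junb as the exception (540 in male 1 and 581 in male 2), and Fos read 5347 and 2064. Of all probe sets, 44.1% were higher in male 1 of the domesticus x musculus F1 and 47.1% in male 1 of the musculus x domesticus F1.

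The males of the remaining genotypes were more alike. Fos read 3312 and 3374 in the castaneus x musculus F1, 3404 and 2887 in castaneus and 3375 and 2734 in musculus. No member differed by more than 1 between males in any of these 3 genotypes, where 3.12%, 3.29% and 1.06% of all probe sets did. Without domesticus and the musculus x castaneus F1, a choice made after seeing the data, the median size over the members was 0.388 against 0.221 for all probe sets. In that set 8 of 55 cases, or 14.5%, exceeded 1, against 2.81% of all.

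Other measures of these brains are given beside these differences. The summed signal of 10 neuron markers was 77065 in domesticus male 1 and 79325 in male 2, in a range of 66983 to 83467 over all brains. That of 4 blood markers was 708 in domesticus male 1 and 1762 in male 2, the highest of the 14 brains. The summed signal of 7 cerebellum markers was 33818 in musculus x castaneus F1 male 1 and 10422 in male 2, against 29058 to 46278 in the other genotypes. Brain of musculus x castaneus F1 male 2 thus stood apart in a marker list of a brain region. The part of these differences in the members' values was not tested.

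**Figure D2:**
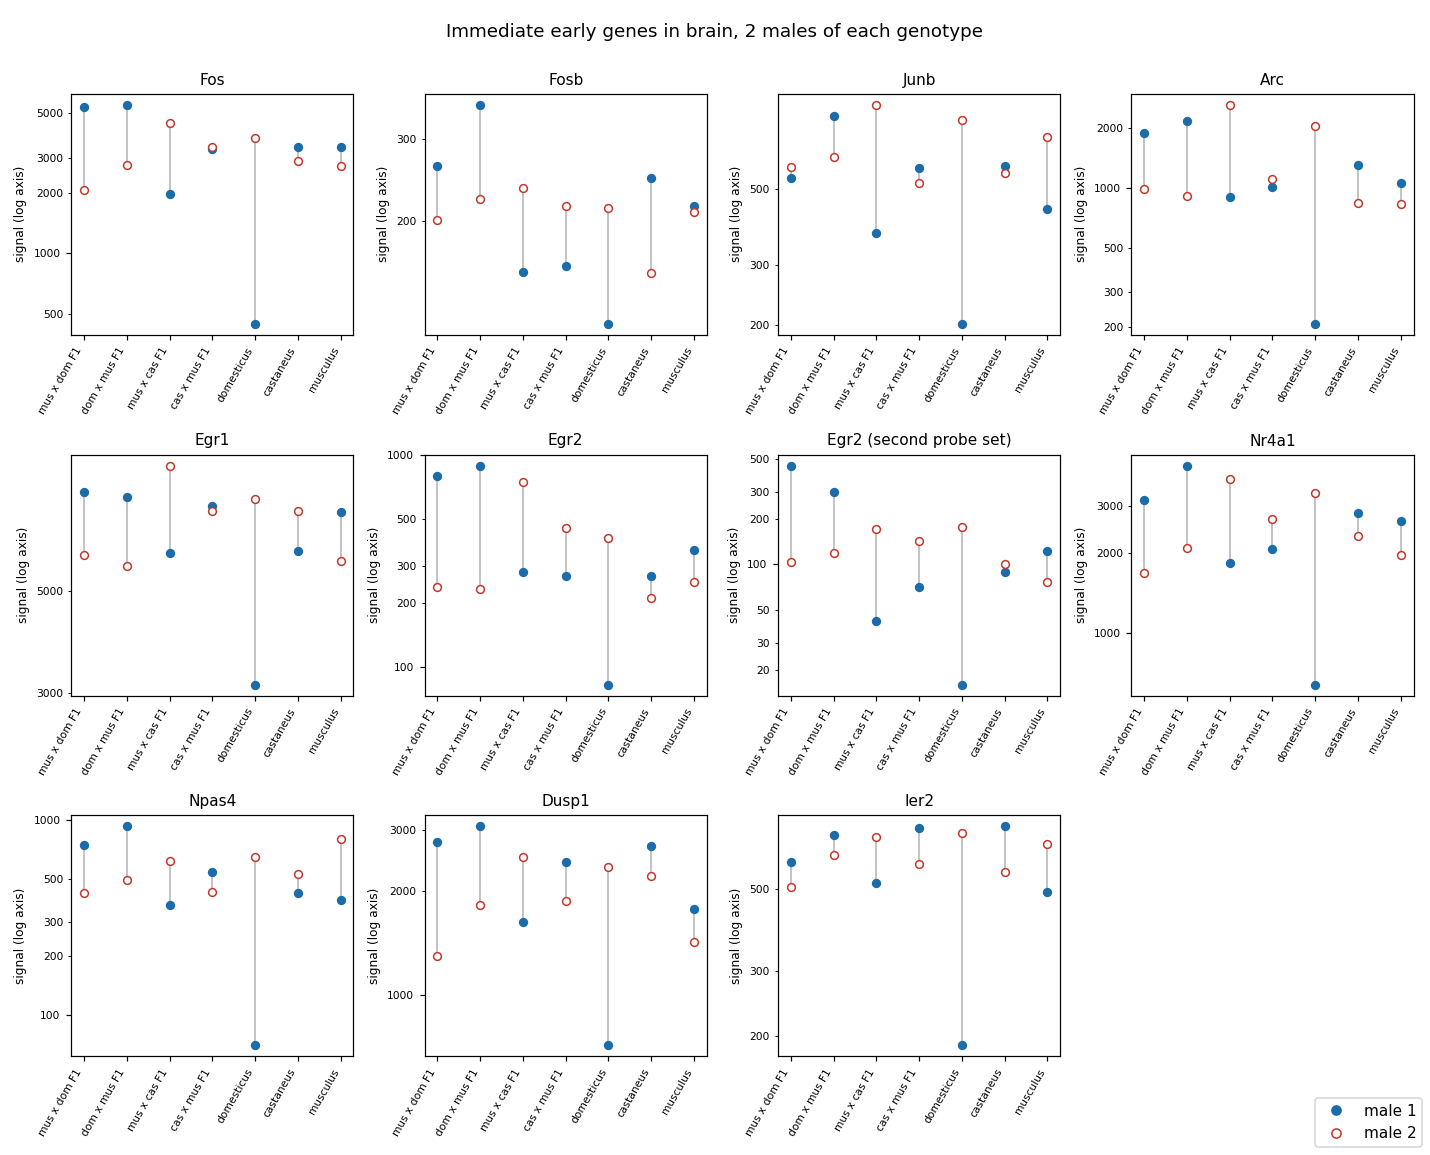
Brain MAS5 signal of members by genotype (log axis), with 1 point for each of the 2 males and F1 hybrids placed left of the parents (mus, dom and cas are short for the subspecies). Domesticus male 1 is the lowest brain for every member, with 447 for Fos against 3761 in domesticus male 2.

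**Figure D3:**
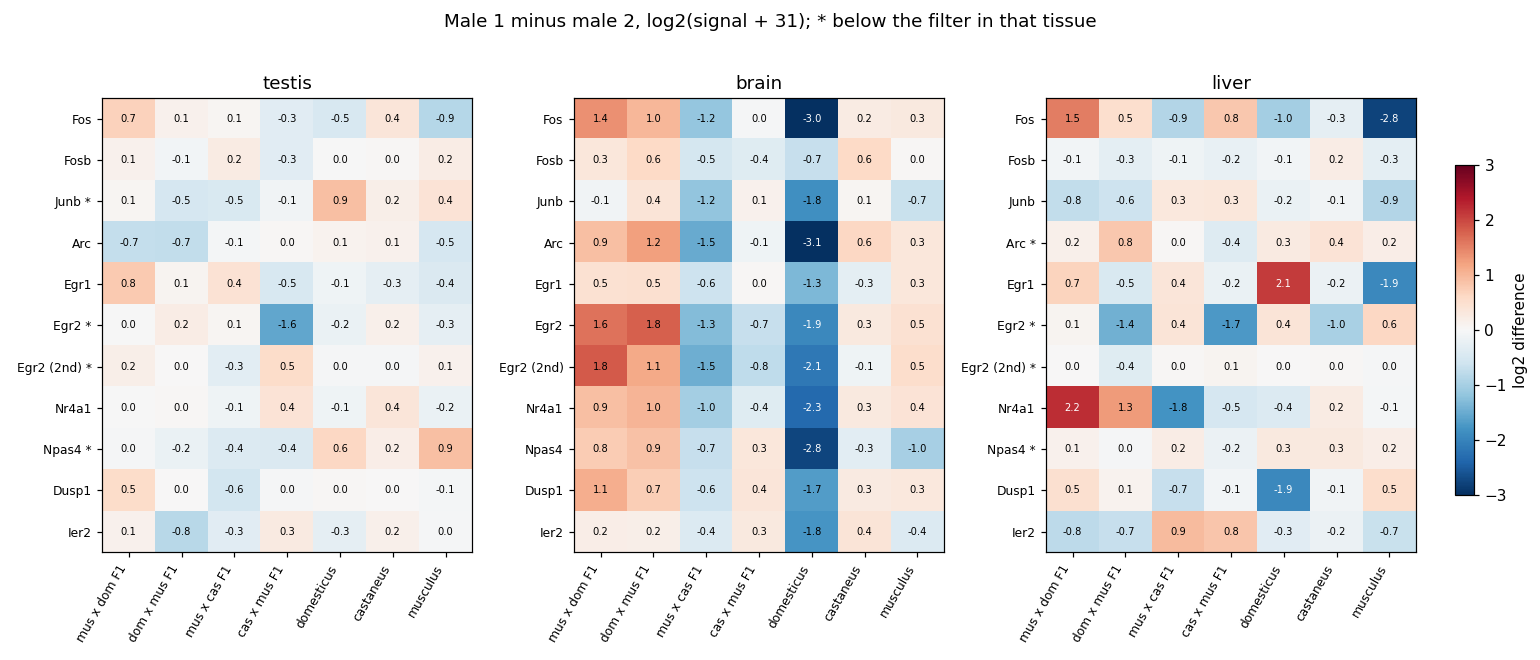
Difference between male 1 and male 2 of each genotype (log2 scale) for the members, by tissue, with colours that end at 3, mus, dom and cas short for the subspecies, and an asterisk where a probe set was not tested. In brain every member is lower in male 1 of domesticus and of the musculus x castaneus F1 and higher in male 1 of the domesticus x musculus F1, while no member tested in testis differs by more than 1. Of all such differences in testis, 2.49% exceed 1.

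The members varied together from brain to brain. Fos was set against each other member within each tissue, 22 relations in all, after the pattern between males had been seen. In brain Pearson's r was 0.97 for Nr4a1 and Spearman's rho was 0.96 (n = 14, adjusted permutation p 0.00022 for both, two-sided, from an unadjusted 1e-05, the smallest these permutations can give). For Arc r was 0.93 and rho 0.92 (adjusted permutation p 0.00022 and 0.00033). Without the 2 brains farthest from the Fos median, domesticus male 1 and musculus x castaneus F1 male 1, r was 0.91 for Nr4a1 and 0.82 for Arc.

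Other members followed Fos less closely once those brains were left out. For Junb r was 0.83 with all 14 brains and 0.33 without the 2, and for Ier2 it was 0.90 and 0.41. Spearman's rho for Junb was 0.51 (adjusted permutation p 0.117) and for Ier2 0.57 (adjusted permutation p 0.0848), so that their relation with Fos rests on those brains. Npas4 had an r of 0.92 with all brains and 0.58 without the 2, and a rho of 0.61 (adjusted permutation p 0.0621). Leaving out musculus x castaneus F1 male 2, the brain with few cerebellum transcripts, gave an r of 0.97 for Nr4a1 and 0.94 for Arc.

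The male with the higher Fos signal also had the higher Arc, Nr4a1, Fosb and Egr2 signal in 7 of 7 genotypes, for Egr2 on its brighter probe set. The same held in 6 of 7 for Dusp1 and the dimmer Egr2 probe set, in 5 of 7 for Egr1 and Ier2, and in 4 of 7 for Junb and Npas4. When the males were swapped only within genotypes, the relations with 7 of 7 had an exact permutation p of 0.0156, the smallest that 7 pairs allow, and an adjusted p of 0.0858. No relation thus passed 0.05 after adjustment in that test, unlike in the permutations over all 14 brains, which ignore genotype. In liver the closest relation with Fos was that of Nr4a1, with an r of 0.59 (n = 14, adjusted permutation p 0.0497) and a rho of 0.53 (adjusted permutation p 0.105), and r was 0.42 without the 2 farthest livers. In testis it was that of Egr1, with an r of 0.58 (n = 14, adjusted permutation p 0.0497) and a rho of 0.53 (adjusted permutation p 0.105).

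**Figure D4:**
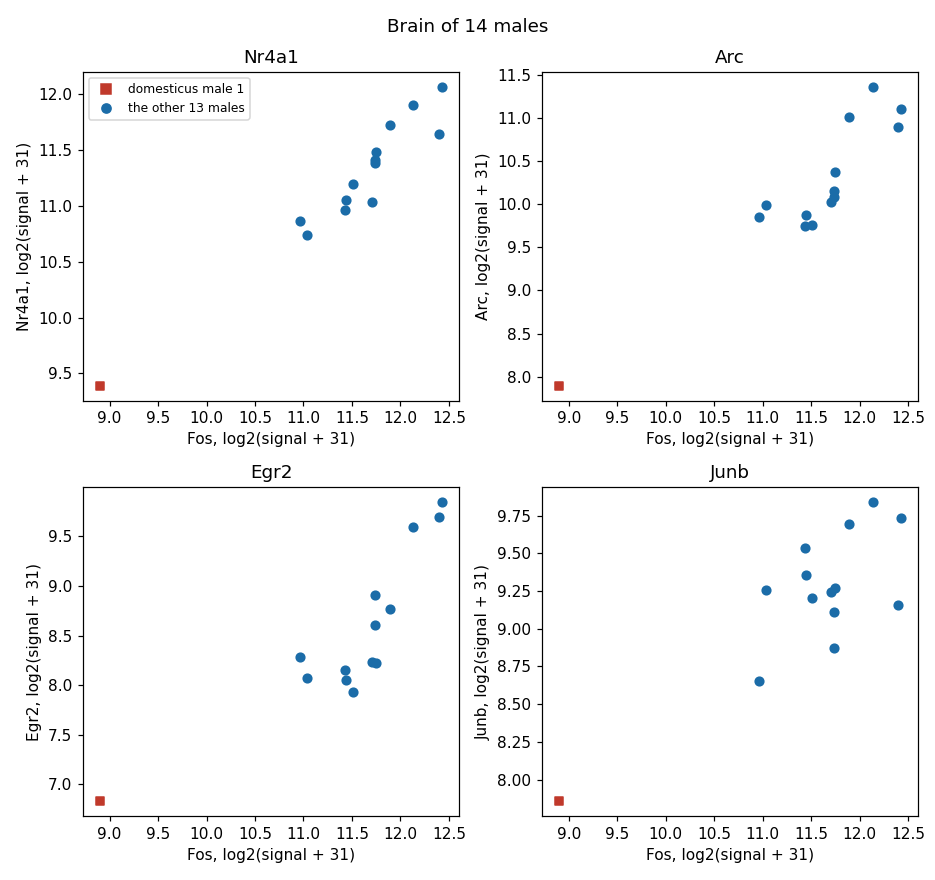
Brain signal of Nr4a1, Arc, Egr2 and Junb against that of Fos (log axes), 1 point per brain. Nr4a1 follows Fos over the whole range (r 0.97). Junb does so less once the lowest brain is set aside (r 0.83 with all 14 brains, 0.52 without domesticus male 1). Without the 2 brains farthest from the Fos median its r is 0.33.

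All genes with a standard deviation of at least 0.3 were then ranked by their Pearson correlation with Fos over the 14 brains, as a description. Of 5942 genes the 10 closest were Nr4a1 (0.966), Egr1 (0.93), Arc (0.925), Dusp1 (0.923), Npas4 (0.915), Ier2 (0.896), Nr4a3 (0.871), Ccn1 (0.864), Egr2 (0.86) and Fosl2 (0.851). 7 of them are members and 3 belong to a list of other rapid response genes: Nr4a3 is a relative of Nr4a1, Fosl2 is a Fos relative and Ccn1 encodes a matrix protein. All 9 other members ranked among the first 14. In liver, where 5 genes were listed, they ran from Mthfd1l (0.785) to A930005H10Rik (0.759), and Ccn1 was at rank 8 (0.747) and Nr4a1 at rank 109 (0.587). In testis the 5 closest ran from Htr3a (0.89) to Inip (0.826), and the closest member was at rank 525.

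Of the 43 other rapid response genes tested in brain, 33 were lower and 10 higher in domesticus male 1 than in male 2, with a median difference of -0.30. Of all probe sets tested, 51.8% were lower there, with a median of -0.02. As examples chosen after their values were seen, Egr4, a relative of Egr1, read 231 in male 1 and 685 in male 2, against 348 to 761 in the other 12 brains. Nr4a3 read 460 and 1111, and Dusp6, a phosphatase of ERK kinases, 1113 and 2351, both lower in male 1 than in all the other brains. Of the 43, 5 were lower in male 1 by more than 1, as were 0.744% of all probe sets. Only 1 was higher by more than 1: Dusp5, also an ERK phosphatase, with 348 in male 1 and 114 in male 2. In the musculus x castaneus F1 37 of the 43 were lower in male 1, and in the musculus x domesticus F1 34 were higher. Of 28 upstream factors and kinases, 14 were higher and 14 lower in domesticus male 1. Of 22 delayed neuronal activity targets, 15 were lower and 7 higher, with a median of -0.23.

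The same male was followed across tissues by asking whether its difference from the other male of its genotype had the same sign in both. Over 20 relations of 1 member in 2 tissues, the sign was shared in 2 to 6 of 7 genotypes, with a median of 4. None had an adjusted p under 0.05 by an exact permutation test that swapped the males within genotypes, and 1 had an unadjusted p under 0.05. That relation was Nr4a1 in brain and liver, with the same sign in 6 of 7 genotypes, an r of 0.70 and a rho of 0.82 (n = 7 pairs, exact permutation p 0.0312, adjusted p 0.624, two-sided). Musculus x domesticus F1 male 1, for example, had 3160 in brain and 1906 in liver, and male 2 had 1683 in brain and 387 in liver. Dusp1 in brain and liver had an r of 0.95, which was 0.46 without the 2 farthest genotypes (exact permutation p 0.0625, adjusted p 0.625). The smallest p this design allows is 0.0156. A single relation of 20 that reached it, as 1 did after quantile normalization, had an adjusted p of 0.312 in the same exact permutation test. The adjusted test could thus hardly be passed, and it does not show that males differ alike in no tissues.

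Between subspecies, no member was called in brain. For domesticus minus musculus 0 of 11 were called, where 5.75% of all probe sets were, with 0 at an unadjusted p under 0.05 and a lowest adjusted p of 0.447 (limma). Fos read 447 and 3761 in domesticus and 3375 and 2734 in musculus, a difference of -1.19 ± 0.764 (SE) with a 95% interval of -2.86 to 0.48. Domesticus brains lay on both sides of the musculus brains. The members' median difference was -0.46 with all arrays, 0.395 without domesticus male 1 and -1.453 without domesticus male 2, so the choice of 1 brain turned its direction. Without domesticus male 2, Fos, Npas4 and Ier2 were called lower in domesticus, on the single brain that remained.

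For castaneus minus musculus in brain 0 of 11 were called, against 6.07% of all probe sets, and the members' median difference was 0.037, and -0.04 to 0.195 with each brain left out in turn. Fos read 3404 and 2887 in castaneus and 3375 and 2734 in musculus, a difference of 0.04 with a 95% interval of -1.63 to 1.72. That interval holds a more than doubled level in either direction.

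In the F1 hybrids of the domesticus cross 0 of 11 members were called against the mean of the parents in brain, where 0.137% of all probe sets were. Fos read 5347 and 2064 in the musculus x domesticus F1 and 5487 and 2753 in the domesticus x musculus F1, against 447 and 3761 in domesticus and 3375 and 2734 in musculus. The members' median difference was 0.546, and 0.035 without domesticus male 1. In the castaneus cross 0 of 11 were called, against 0.137% of all. The median there was 0.046, but 0.304 without musculus x castaneus F1 male 1 and -0.21 without its male 2, so 1 brain turned its direction. Reciprocal F1 did not differ by call in either cross (0 of 11 each, against 0.0222% of all probe sets in the domesticus cross and 0.0111% in the castaneus cross).

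In liver no member was called in a comparison of genotypes. For domesticus minus musculus 0 of 7 were called against 6.17% of all probe sets, and for castaneus minus musculus 0 of 7 against 6.55%. Fos in musculus livers spanned 138 in male 1 and 1125 in male 2, which nearly covers the range of all 14 livers. Egr1 read 1324 and 285 in domesticus livers and 755 and 2961 in musculus livers. Without domesticus male 1, Egr1 was called lower in domesticus (-2.28, adjusted p 0.0478, limma), and without domesticus male 2, Dusp1 was (-1.85, adjusted p 0.00568), each on the single domesticus liver that remained.

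The nearest to a call in liver was Dusp1 in the domesticus cross. It read 4263 and 3041 in the musculus x domesticus F1 and 2913 and 2714 in the domesticus x musculus F1, against 431 and 1725 in domesticus and 1967 and 1365 in musculus. All 4 hybrid livers lay above all 4 parental livers, which held for 0.792% of all probe sets tested. The difference from the mean of the parents was 1.39 ± 0.321 (SE; unadjusted p 0.000863, adjusted p 0.213, limma), and 0.178% of all probe sets were called. Without domesticus male 2 the difference was 1.87 (adjusted p 0.00139), and without domesticus male 1 it was 0.91 (adjusted p 0.2). In the castaneus cross 0 of 7 members were called against the mean of the parents, against 0.241% of all.

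Junb in liver read 396 and 687 in the musculus x domesticus F1 and 205 and 333 in the domesticus x musculus F1. The groups did not overlap, as was the case for 43.3% of all probe sets tested, and the difference of 0.92 ± 0.343 (SE) was not called (unadjusted p 0.0194, adjusted p 0.385, limma; 0.0888% of all probe sets called). In the castaneus cross the reciprocal comparison called 0 of 7, against 0.037% of all.

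In testis, members were called in 3 comparisons. Nr4a1 fell in domesticus testes, with 1033 and 1144, against 1795 and 2055 in musculus testes. The groups did not overlap, which held for 53.9% of all probe sets tested, and the difference was -0.80 ± 0.166 (SE; adjusted p 0.0052, limma). It was the single member called of 7, where 12.8% of all probe sets were called and 5.86% were lower. Without domesticus male 1 the adjusted p was 0.0521, and without musculus male 2 it was 0.055. For castaneus minus musculus 0 of 7 were called against 13.5% of all, and Nr4a1 read 1654 and 1283 in castaneus testes.

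The F1 of the domesticus cross held Nr4a1 at 1620 and 1635 with a musculus mother and at 1185 and 1160 with a domesticus mother. These did not overlap, nor did 30% of all probe sets tested, and the difference of 0.46 ± 0.166 (SE) was not called (unadjusted p 0.015, adjusted p 0.762, limma), where 0.204% of all probe sets were called. Against the mean of the parents 0 of 7 members were called in this cross, where 0.414% of all were.

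Reciprocal F1 of the castaneus cross differed for 4 of 7 members in testis, 2 higher and 2 lower with a musculus mother, in a comparison where 28.4% of all probe sets were called, 17.9% higher and 10.6% lower. Egr1 read 770 and 562 in the musculus x castaneus F1 and 238 and 346 in the castaneus x musculus F1, a difference of 1.11 ± 0.271 (SE; adjusted p 0.00888, limma). Both musculus x castaneus males lay above all the other 12 testes, as they did for 22.2% of all probe sets tested. Ier2 read 411 and 532, also above the other 12, against 262 and 210 in the castaneus x musculus F1, a difference of 0.91 ± 0.256 (adjusted p 0.0188).

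Arc and Nr4a1 went the other way. Arc read 730 and 763 in the musculus x castaneus F1, the lowest of the 14 testes as for 10.7% of all probe sets, and 1478 and 1448 in the castaneus x musculus F1, a difference of -0.94 ± 0.251 (SE; adjusted p 0.0143, limma). Nr4a1 read 912 and 997, again the lowest of the 14, against 1551 and 1156, a difference of -0.48 ± 0.166 (adjusted p 0.0462). With a musculus mother the Nr4a1 signal was thus the lower one here, and the higher one in the domesticus cross, where it was not called. With each of the 4 testes left out in turn, 1 to 3 of the members were called: Ier2 alone without musculus x castaneus F1 male 1 or castaneus x musculus F1 male 1, Egr1 alone without musculus x castaneus F1 male 2, and all but Ier2 without castaneus x musculus F1 male 2.

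The comparison is shifted as a whole: the median over all tested probe sets was 0.237 as deposited and 0.034 after quantile normalization, after which 44.8% of calls were higher, against 62.9% as deposited, and 22.6% of probe sets were called. After quantile normalization the Ier2 difference was 0.61 (adjusted p 0.151), and Egr1 (0.84), Arc (-1.07) and Nr4a1 (-0.56) were still called. Marker lists of testis cells moved with it too. The summed signal of 4 Leydig cell markers was 16314 to 17853 in the musculus x castaneus F1 and 6710 to 8657 in the castaneus x musculus F1, and that of 8 Sertoli cell markers was 24241 to 25336 against 15431 to 15555. The summed signal of 8 spermatid markers was 83883 to 95556 in the musculus x castaneus F1 and 103502 to 111983 in the castaneus x musculus F1. No marker of the 3 lists was at or below the offset in these testes, and the part of these lists in the members' differences was not tested.

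Against the mean of the parents, the F1 of the castaneus cross were lower for Nr4a1 (-0.55 ± 0.117 SE, adjusted p 0.00628, limma) and Arc (-0.64 ± 0.178, adjusted p 0.025), 2 of 7 members, where 17.4% of all probe sets were called and 7.88% were lower. Nr4a1 read 1654 and 1283 in castaneus and 1795 and 2055 in musculus, and Arc 1365 and 1252 in castaneus and 1738 and 2482 in musculus. For both genes the musculus x castaneus F1 lay below both parents. The castaneus x musculus F1 overlapped the castaneus parent for Nr4a1 and lay between the parents for Arc. The Arc call was lost when any 1 of 7 of the 8 testes was left out, and that of Nr4a1 was kept each time.

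**Figure D5:**
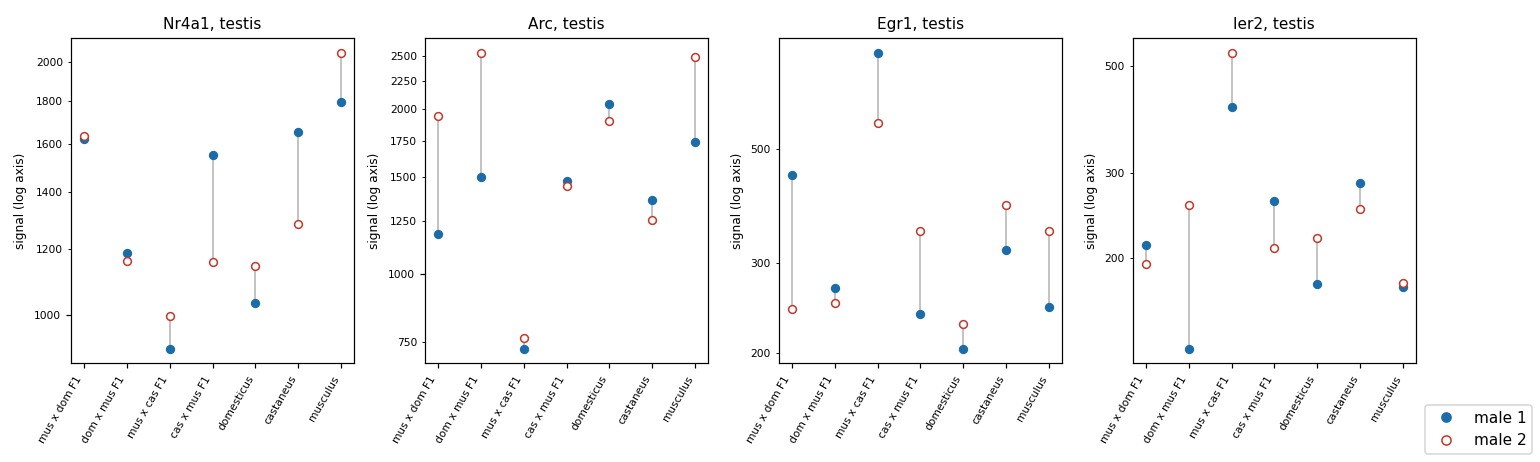
Testis signal of Nr4a1, Arc, Egr1 and Ier2 by genotype (log axis), 1 point per male, with F1 hybrids left of the parents. The 2 musculus x castaneus F1 males are the highest for Egr1 (770 and 562) and Ier2 (411 and 532) and the lowest for Arc (730 and 763) and Nr4a1 (912 and 997).

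The mean of both reciprocal F1 lay beyond both parents by call for no member in either cross. In brain 0 of 11 were called (0% of all probe sets in both crosses). In liver 0 of 7 were (0% of all in the domesticus cross and 0.0037% in the castaneus cross), and in testis 0 of 7 (0% and 1.13%). Opposite shifts of the 2 reciprocal F1 can cancel in that mean, and neither F1 was tested against the parents alone. Both musculus x castaneus F1 testes lay above the other 12 for 2 members (22.2% of all probe sets). They lay below the other 12 for 2 (10.7%). The parental difference did not depend on tissue by call for any of 9 members in either cross, where 6.98% of all probe sets did in the domesticus cross and 7.25% in the castaneus cross. The lowest adjusted p of a member was 0.538 in the domesticus cross and 0.616 in the castaneus cross (limma F test). Without domesticus male 2, Dusp1 was called in the domesticus cross.

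Calls between subspecies were also made among other genes of the pathway. Of 28 upstream factors and kinases tested in liver, 2 were higher and 0 lower in domesticus than in musculus, and 1 was higher in castaneus. These comparisons called 6.17% and 6.55% of all probe sets, so the counts are near the share of all and show nothing particular to the list. Nab2, a corepressor that binds EGR proteins, read 584 and 412 in domesticus livers and 159 and 163 in musculus livers, a difference of 1.44 ± 0.227 (SE; adjusted p 0.00181, limma). In castaneus livers Nab2 read 638 and 706, 1.87 ± 0.227 above the same musculus livers (adjusted p 0.000268).

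Nab2 was higher in testis as well, with 411 and 429 in domesticus (0.73, adjusted p 0.0354, limma) and 663 and 583 in castaneus (1.27, adjusted p 0.00109), against 228 and 253 in musculus. In brain it read 948 and 837 in castaneus, a called difference of 1.02 (adjusted p 0.0274), and 512 and 863 in domesticus, not called (adjusted p 0.197), against 428 and 420 in musculus. Both differences share the musculus arrays and rest on 1 probe set. Strain differences under its probes can alter such a signal in every tissue, which was not tested for Nab2.

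Among 45 other rapid response genes tested in liver, 1 was higher and 1 lower in domesticus than in musculus, where 6.17% of all probe sets were called: the clock gene Per2 rose by 2.21 (adjusted p 0.00175, limma) and Btg1 fell by 0.93 (adjusted p 0.0266). In testis 1 of 40 was higher and 4 were lower in domesticus, a share near the 12.8% of all probe sets called there, with Dusp5, a nuclear ERK phosphatase, at -2.39 (adjusted p 0.000616) and Nr4a3 at -0.99 (adjusted p 0.0179). In brain 0 of 43 were called in either parental comparison, against 5.75% of all probe sets for domesticus and 6.07% for castaneus, and of 22 delayed neuronal activity targets Homer1, a postsynaptic scaffold gene, was higher in domesticus (0.81, adjusted p 0.0351).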

How the data were processed

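Each array file value is an intensity: 1 MAS5 signal per probe set, on a linear scale as deposited, with the method named in the submitters' processing notes. Sources used here give no MAS5 version, scaling target or detection calls. Trimmed array means lay between 496.9 and 498.6, so arrays had been scaled to a shared level. MAS5 subtracts mismatch signal, and strain differences under the probes can alter it. Of 45037 probe sets, 34945 had 1 gene symbol, 932 several and 9160 none. No genome or sequence table was used.

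The offset of 31 added before log2 is the 20th percentile over all arrays. Each tissue was fitted over its 14 arrays with genotype as factor, and tissues over all 42 arrays, with limma 3.58.1 in R 4.3.3 (lmFit, eBayes with an intensity trend). Comparisons of F1 with parents used the mean of both reciprocal F1. The fit over all 42 arrays held no term for the male, so its p-values ignore that the tissues came from the same males. P-values are two-sided and Benjamini-Hochberg adjusted over the 27022 probe sets tested. Signals at the filter were 100 (brain), 82.4 (liver), 84.3 (testis) and 105 (all arrays). On data simulated for domesticus minus musculus over 27022 probe sets, a log2 change of 1 was recovered in 27% of 200 changed probe sets for brain, 4.5% for liver and 33.5% for testis, and a change of 2 in 85.5%, 68.5% and 91%. The changed probe sets were drawn from all those tested. Since the members varied more between brains than most probe sets, the brain rates do not carry over to them. Correlations used 100000 permutations, and relations between males exact swaps.

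Named genes were all members, called genes of the lists as examples, Nab2, and the genes closest to Fos. The members and lists were chosen with earlier results of these data known. Alternatives were an offset of 100, no filter, quantile normalization, no intensity trend, the replicate block and leaving out each array. In the fit over all 42 arrays, each male was left out with all its arrays. Replicate numbers were taken from the labels as marking the same male across tissues. Between tissues of 1 male, 21 of 21 deviation correlations were over 0.1 (0.159 to 0.476). Between genotypes with the same number, 13 of 21 were over 0.1 in brain (-0.466 to 0.561). In testis (-0.39 to 0.306) and liver (-0.281 to 0.297) 10 of 21 each were. The same-male values thus lie within the brain range of unrelated males, and the pairing rests on the labels. Across genotypes, males with the same replicate number share only that number. Precision is limited by how few arrays there are. The limma p-values rest on the spread between the 2 males of a genotype, pooled over all 7 genotypes. A pair of males that differs widely thus also widens the intervals of comparisons it is not part of.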

Additional observations from a re-analysis of the deposited data

Results flagged for a closer look

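Junb had reciprocal differences of opposite sign in 2 tissues of the same animals. For the musculus x domesticus F1 minus the domesticus x musculus F1 it was -0.34 in brain, where the signals were 540 and 581 against 820 and 624, and 0.92 in liver, where they were 396 and 687 against 205 and 333. The 2 F1 did not overlap in either tissue, as was the case for 28.7% of all probe sets tested in brain and 43.3% in liver. The brain difference was smaller than its standard error of 0.5, neither difference was called, and the difference between tissues was not tested.

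Egr1 did so in the castaneus cross. For the musculus x castaneus F1 minus the castaneus x musculus F1 it was 1.11 in testis, where the signals were 770 and 562 against 238 and 346, and -0.31 in liver, where they were 742 and 569 against 762 and 872. Of all probe sets tested, 63.4% did not overlap in testis and 25.3% in liver. The liver difference was smaller than its standard error of 0.615 and was not called, and the difference between tissues was not tested.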

How the results depend on the processing

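With an offset of 100, no filter, quantile normalization, no intensity trend or the replicate block, every count of called members stayed within 1.5 times its value. The replicate block left 0 members called in brain and liver and 1, 2 and 4 in the 3 testis comparisons with calls. Within a tissue this block is the replicate number, which males of different genotypes share only as a label, so these unchanged counts show little. In the fit over all 42 arrays the block is the male. Of single calls, Nr4a1 in testis, musculus x castaneus F1 minus castaneus x musculus F1, was lost without the filter (adjusted p 0.0642) and without the trend (0.0726), and Ier2 after quantile normalization (0.151); none was reversed. Leaving out 1 array gave 0 to 3 called members for domesticus minus musculus in brain (3 without domesticus male 2), 0 to 1 in liver (1 without either domesticus male) and 0 to 1 in testis. For the F1 against the mean of the parents it gave 0 to 1 in liver of the domesticus cross and 1 to 2 in testis of the castaneus cross. For the reciprocal F1 of the castaneus cross in testis it gave 1 to 3, against 4 with all arrays, with 1 without musculus x castaneus F1 male 1 or male 2 or castaneus x musculus F1 male 1. All 3 arrays of a male were left out together for the tissue dependence of domesticus minus musculus. That result turned on domesticus male 2. Where an arm keeps 1 array, that array is assumed to vary like the other groups. Signals near the offset, such as Npas4 outside brain, give no usable difference.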
